A study of Mus musculus with 2 samples.

Results

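The genes described here are 8 sarcomere genes of fast muscle fibres, out of 27998 features in the count tables: the troponin genes Tnnt3, Tnnc2 and Tnni2, the tropomyosin gene Tpm1, the myosin light chain genes Mylpf and Myl1, the Z-disc genes Actn3 and Myoz1. They were chosen by symbol, not by their values, and their levels are given by the main myosin of the nucleus and by library. All 8 had more than 20 UMIs over both libraries. A UMI (unique molecular identifier) marks 1 captured RNA molecule, and levels are in CPM, the UMIs of a gene per 1000000 UMIs of the same group of nuclei.

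Single-nucleus RNA-Seq was run on a calf muscle group of the mouse, the gastrocnemius with the plantaris (GP), to ask how adult myonuclei differ after loss of Net39, a nuclear envelope protein of muscle encoded by Plpp7. The cKO library came from HSACreERT2;Net39 fl/fl mice, in which tamoxifen activates a Cre recombinase driven by the human skeletal actin promoter, which acts in skeletal muscle fibres and spares heart and satellite cells. The Ctrl library came from Net39 fl/fl mice without Cre. Both were labelled B6C3F1, male, 5 months old and 3 months past tamoxifen, and each library held nuclei of 3 pooled GP muscles. With 1 library per group no test between groups was possible, and every 95% interval covers the error of counting UMIs, while animals were pooled and their spread was not measured.

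In a muscle fibre, calcium binds troponin C, which releases the hold of troponin I on the actin filament, while troponin T anchors the complex to tropomyosin. Most of these proteins have a fast and a slow version from separate genes, and a fibre usually pairs them with the matching myosin heavy chain: Myh7 in slow type I fibres, Myh2 in type IIa, Myh1 in type IIx and Myh4 in type IIb. Mouse GP muscle is made mostly of fast fibres. All 8 genes are therefore typical of its nuclei.

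Tnnt3 lies on chromosome 7 of GRCm38 at chr7:142498836-142516009, and Tnni2 is its neighbour at chr7:142441808-142444410, both on the plus strand. Mylpf is on the same chromosome and strand at chr7:127208890-127214298. The other members are on the minus strand of other chromosomes: Tnnc2 at chr2:164777161-164779967, Tpm1 at chr9:67022590-67049406, Myl1 at chr1:66924295-66945404, Actn3 at chr19:4861216-4877909 and Myoz1 at chr14:20649107-20656540. Tnnc2 overlaps the coding gene Ube2c on the opposite strand, and Tnnt3 overlaps the noncoding gene Prr33 on the opposite strand. Whether the counting used strand is not given in the sources used here, so reads from these overlaps are uncertain.

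RefSeq promoter windows on GRCm38.p6 were at hand for 4 of the 8 genes: Tnnc2, Tpm1, Mylpf and Myl1. The 250 bases before each start were searched on both strands for the E-box CANNTG, the MCAT motif CATTCC and, by name, the MEF2 and CArG box motifs, which are known from muscle promoters. The E-box was found in all 4 windows, and in 66.2% of all 32851 windows of that length. MCAT was found in the Tpm1 and Myl1 windows and in 12.6% of all windows. MEF2 (2.92% of all windows) and the CArG box (1.47%) were in 0 of the 4. The sequences below are the stretches of these windows outside every exon of GENCODE M21, 5′ to 3′ on the strand of the gene, for both light chain genes and for Tnnc2. The light chain genes are shown as the members that were higher in cKO, and Tnnc2 as the member whose level differed least. Capitals mark the E-box; no motifs overlapped in these windows, and a match describes the letters only. The Mylpf stretch (chr7:127211358-127211607, plus strand) lies in an intron of longer Mylpf transcripts. The Myl1 stretch is chr1:66945144-66945290 and the Tnnc2 stretch chr2:164779742-164779867, both minus strand. Each of these too lies inside the span of its own gene, downstream of the first annotated start. The bases just after the RefSeq start of Myl1 were found in no GENCODE M21 transcript of that gene.
Mylpf: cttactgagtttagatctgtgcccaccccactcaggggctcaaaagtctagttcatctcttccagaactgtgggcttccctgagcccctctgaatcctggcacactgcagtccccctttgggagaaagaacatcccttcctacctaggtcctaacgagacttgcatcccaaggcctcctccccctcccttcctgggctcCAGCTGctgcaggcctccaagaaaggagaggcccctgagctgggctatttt
Myl1: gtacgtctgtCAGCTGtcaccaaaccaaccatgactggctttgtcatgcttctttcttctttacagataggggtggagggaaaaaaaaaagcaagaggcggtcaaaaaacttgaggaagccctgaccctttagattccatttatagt
Tnnc2: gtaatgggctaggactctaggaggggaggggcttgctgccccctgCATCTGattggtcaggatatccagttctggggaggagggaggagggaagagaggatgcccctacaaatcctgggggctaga

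The Ctrl library held 10410316 UMIs in 3863 barcodes and the cKO library 8446070 UMIs in 3994, with 5 barcodes shared by both. After filters, 2984 Ctrl and 3301 cKO nuclei were myonuclei, with medians of 2138.5 and 1648 UMIs. Malat1 took 25.5% of the UMIs of the nuclei used in Ctrl and 30.7% in cKO. Plpp7 was at 51.8 CPM in Ctrl myonuclei (46.9 to 57.1) and at 41.2 CPM in cKO (36.5 to 46.3), but reads come from the 3′ ends of transcripts while the deletion removes the first exon, so these levels do not check the deletion. In Myh4-main nuclei (those whose main myosin was Myh4) the Plpp7 level of Ctrl, 54.7 CPM, and that of cKO, 60.5 CPM, had overlapping intervals. Across the 11474 features with at least 20 UMIs in myonuclei, cKO over Ctrl had a median log2 ratio of −0.08, or 0.02 when the total was taken without mitochondrial genes and Malat1.

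A nucleus with 3 or more UMIs of Myh7, Myh2, Myh1 and Myh4 together was given as its main myosin the gene that held 60% or more of them. In Ctrl this gave 1912 Myh4-main, 301 Myh1-main, 165 Myh2-main and 19 Myh7-main nuclei. In cKO it gave 1434, 382, 325 and 276. The remaining nuclei were mixed (126 in Ctrl, 207 in cKO) or had too few myosin UMIs (461 and 677). Myh4-main nuclei gave 68.6% of the myonuclear UMIs in Ctrl and 43.9% in cKO. Myh4 was the main myosin of 64.1% of Ctrl myonuclei and of 43.4% of cKO myonuclei.

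RNA from broken fibres can enter any droplet, so levels are set beside those of cluster 4, nuclei from outside the fibres in which 9 of 9 markers of fibro-adipogenic progenitors (FAPs) were detected. Adipocyte markers were detected in this cluster too. Cluster 4 held 318 Ctrl and 148 cKO nuclei with medians of 1343.5 and 1199 UMIs. All 8 genes were at least 1.5-fold higher in myonuclei than in cluster 4 in both libraries, by a median log2 ratio of 1.43 in Ctrl and 1.49 in cKO, while 19.3% of features in Ctrl and 22.5% in cKO were that much higher. The interval spanned 0 only for Tnnc2 in cKO (0.67, −0.19 to 1.68). Cluster 6, nuclei with endothelial and smooth muscle markers and also from outside the fibres, held more of all 8 genes than cluster 4 in both libraries. It held more Tnnc2 than the myonuclei, 105 CPM against 75.0 CPM in Ctrl and 126 CPM against 70.4 CPM in cKO, and less of the other 7. For Tnnt3 it held 1568 CPM in Ctrl, where all myonuclei held 2128 CPM. A level above cluster 4 is therefore not always above cluster 6. The levels in these clusters were not subtracted, and their part in the results was not tested.

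The levels of Tnnt3, Tnni2 and Tpm1 stepped down from Myh4-main over Myh1-main and Myh2-main to Myh7-main nuclei in both libraries, those of Mylpf in Ctrl and those of Myoz1 in cKO. In Ctrl, Myh1-main nuclei had a median log2 ratio of −0.32 against Myh4-main nuclei over the 8 genes, Myh2-main nuclei −0.85 and Myh7-main nuclei −2.04. All features counted had medians of −0.06, −0.04 and −0.62. In the Myh7-main nuclei of both libraries, 8 of 8 genes were at least 1.5-fold lower than in Myh4-main nuclei, as were 50.4% of features in Ctrl and 24.9% in cKO. The 19 Ctrl nuclei gave wide intervals, and 5 of 8 lay below 0 there, against 8 of 8 in cKO. Assigning the myosin after thinning each nucleus to 500 UMIs moved the Ctrl median of Myh2-main over Myh4-main nuclei to −1.67.

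Tpm1, a tropomyosin gene of fast fibres, the heart and other tissues, stepped down between neighbours in both libraries. It was at 2089 CPM in Ctrl Myh4-main nuclei (2051 to 2128), 858 in Myh1-main (795 to 925), 539 in Myh2-main (470 to 616) and 346 in Myh7-main (189 to 580). In cKO the same order held, with 2246, 969, 557 and 185 CPM. The intervals of neighbouring myosins did not overlap, except between Myh2-main and Myh7-main nuclei in Ctrl. Cluster 4 held 630 CPM in Ctrl and 460 CPM in cKO, so in both libraries the Myh2-main levels were not above this reference within their intervals and the Myh7-main levels lay below it.

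Actn3, which encodes the α-actinin of fast Z-discs, was at 775 CPM in Ctrl Myh4-main nuclei (752 to 799) and at 251 CPM in Myh1-main nuclei (217 to 288). In Myh2-main nuclei it measured 118 CPM (86.8 to 156) in Ctrl against 32.0 CPM (20.1 to 48.4) in cKO, with a log2 ratio of −1.88 (−2.68 to −1.12). Both Myh2-main levels lay below cluster 4, with 212 CPM in Ctrl and 161 CPM in cKO, and no expression is read from either.

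Myoz1, which encodes a calcineurin-binding protein of fast Z-discs, followed the same order as Actn3 over the 3 fast myosins. Its Ctrl levels were 289 CPM in Myh4-main, 122 in Myh1-main and 56.4 in Myh2-main nuclei. In cKO they were 236, 105 and 36.4 CPM. The Ctrl Myh7-main value, 148 CPM (54.4 to 323), rested on 6 UMIs and overlapped its neighbours. Cluster 4 held 93.7 CPM in Ctrl and 40.3 CPM in cKO, so the Myh2-main levels were again not above the reference, and the Ctrl Myh1-main interval overlapped it. The Ctrl Myh1-main level also lay below cluster 6 (201 CPM, 156 to 255).

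The troponin genes differed less between the fast myosins. Tnnt3, which encodes fast troponin T, was at 2254, 1933 and 1542 CPM in Ctrl Myh4-main, Myh1-main and Myh2-main nuclei, and each interval lay apart from the next. The Myh2-main level was not above cluster 6, which held 1568 CPM in Ctrl. In cKO, Tnnt3 measured 1418 CPM in Myh2-main nuclei against 1650 CPM in cluster 6. Tnni2, which encodes fast troponin I, was at 314, 265 and 223 CPM, and the intervals of neighbours overlapped. Each of these Ctrl intervals of Tnni2 also overlapped that of cluster 6 (245 CPM, 195 to 303). Tnnc2, which encodes fast troponin C, was at 80.9, 61.7 and 73.5 CPM, and no order among the 3 fast myosins was detectable at this depth. In cKO, Tnnc2 was at 81.1, 70.6 and 84.3 CPM in the same nuclei and at 36.1 CPM (22.6 to 54.6) in Myh7-main nuclei. The levels of Tnnc2 overlapped cluster 4 in Ctrl Myh1-main and Myh2-main nuclei (48.4 CPM in cluster 4) and in cKO nuclei of all 3 fast myosins (44.3 CPM in cluster 4), as did that of Tnni2 in Ctrl Myh2-main nuclei (162 CPM in cluster 4), and no expression above the reference is read from these.

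Myl1 did not follow the myosin order in either library, and Mylpf did not in cKO. Myl1, which encodes the fast alkali light chains, was highest in Myh1-main nuclei of both libraries: 1167 CPM (1093 to 1244) in Ctrl, and 2193 CPM (2097 to 2293) in cKO. Ctrl Myh2-main nuclei held 838 CPM of Myl1 and Ctrl Myh4-main nuclei 693 CPM (671 to 715), and these intervals did not overlap. In cKO this order was turned, with 1748 CPM in Myh4-main and 1089 CPM in Myh2-main nuclei. Mylpf, the regulatory light chain of fast fibres, was at 119 CPM in Ctrl Myh4-main and 115 CPM in Ctrl Myh1-main nuclei, whose intervals overlapped, and at 53.9 CPM in Myh2-main nuclei, where its interval overlapped that of cluster 4 (31.7 CPM). In cKO its levels were 181, 266 and 106 CPM in the same nuclei, highest with Myh1.

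**Figure D1:**
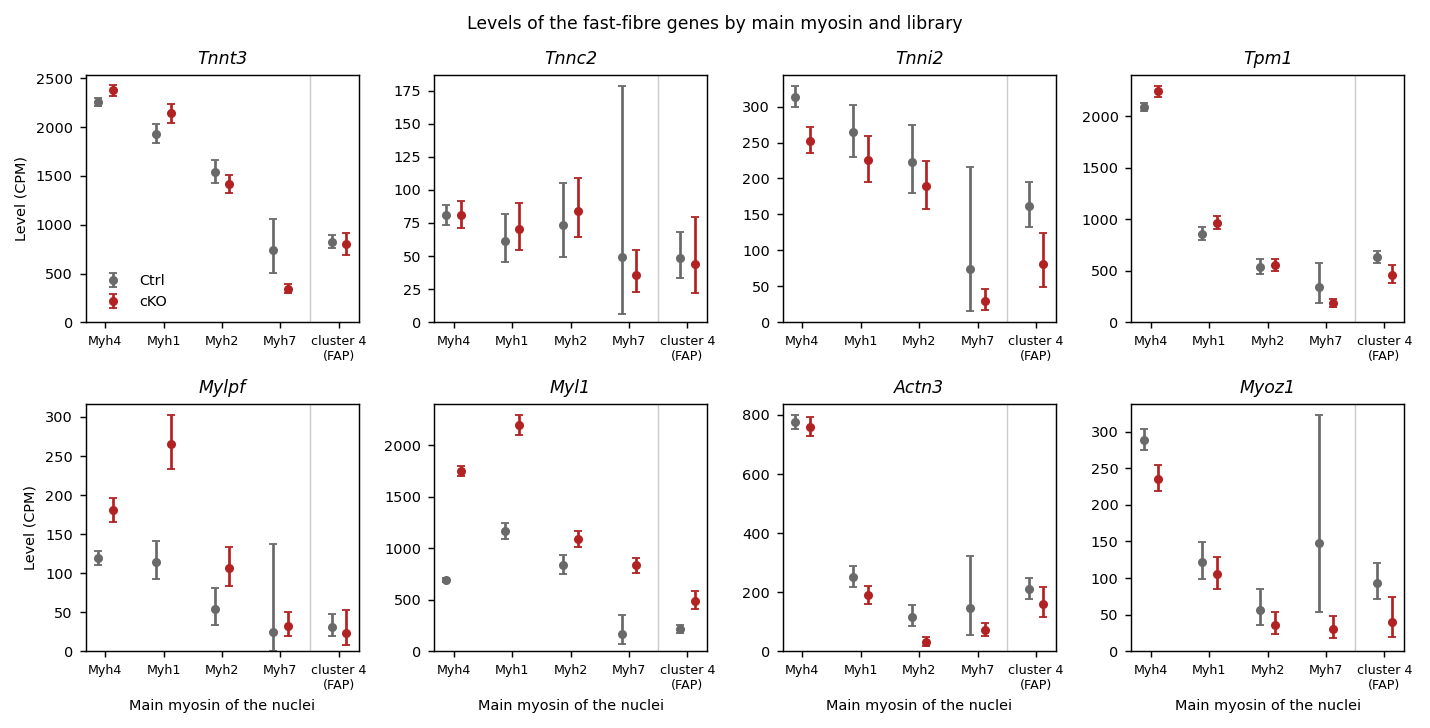
Levels of the 8 genes in CPM (linear axis from 0 in each panel) by main myosin of the nuclei, with cluster 4 (FAP and adipocyte markers) on the right as the reference from outside the fibres. Points are single libraries (grey Ctrl, red cKO) and bars are exact 95% Poisson intervals. Tpm1, Actn3 and Myoz1 are highest in Myh4-main nuclei and Myl1 in Myh1-main nuclei, and Myl1 and Mylpf are the panels in which the cKO point lies above the Ctrl point for each of the 4 main myosins.

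Over all myonuclei, the 8 genes did not move as a block between libraries: 5 were lower in cKO with an interval below 0, 2 were higher with an interval above 0, and Tnnc2 measured 75.0 CPM in Ctrl against 70.4 CPM in cKO with an interval that spanned 0. Myoz1 and Actn3 were at least 1.5-fold lower, and Myl1 was at least 1.5-fold higher, while 13.6% of all features were that much lower and 9.36% that much higher. The median log2 ratio of the 8 genes was −0.29, against −0.08 over all features. Fewer nuclei of a fibre type and less RNA per nucleus cannot be told apart in a sum over all myonuclei.

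Tnnt3 measured 2128 CPM (2095 to 2160) in Ctrl against 1822 CPM (1790 to 1854) in cKO, with a log2 ratio of −0.22 (−0.26 to −0.19). Tnni2 measured 294 CPM in Ctrl against 199 CPM in cKO (−0.56, −0.66 to −0.47). Tpm1 measured 1763 CPM in Ctrl against 1382 CPM in cKO (−0.35, −0.39 to −0.31). These intervals of Ctrl and cKO did not overlap. Actn3 measured 647 CPM in Ctrl against 423 CPM in cKO (−0.61, −0.68 to −0.55). Myoz1 measured 240 CPM in Ctrl against 143 CPM in cKO (−0.75, −0.87 to −0.64), the lowest ratio of the 8.

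Both light chain genes went the other way. Mylpf measured 106 CPM (99.3 to 114) in Ctrl against 149 CPM (140 to 159) in cKO, with a log2 ratio of 0.49 (0.36 to 0.62). Myl1 measured 746 CPM (727 to 765) in Ctrl against 1569 CPM (1539 to 1599) in cKO, with a log2 ratio of 1.07 (1.03 to 1.12). The 5853 Ctrl and 10633 cKO UMIs of Myl1 made it, after Tnnt3, the member with most UMIs in cKO.

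The values of all myonuclei rest in part on 2 clusters that came mostly from 1 library. Cluster 1 held 179 Ctrl and 941 cKO nuclei, 84.0% of them from cKO, and with 272 of the 276 cKO and 18 of the 19 Ctrl Myh7-main nuclei. Cluster 8 held 156 Ctrl and 17 cKO nuclei. Without clusters 1 and 8 the median log2 ratio of the 8 genes was 0.03 and 0 genes were at least 1.5-fold lower, against 11.1% of features. The ratio of Tnnt3 was then 0.07, that of Tpm1 0.04, that of Actn3 −0.21, that of Myoz1 −0.45 and that of Myl1 1.14.

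For the whole set of myonuclei, the CPM difference was divided into 1 part owed to the shares of the 6 myosin classes (4 main myosins, mixed and undetermined) and 1 part owed to levels inside them. For Tpm1, class shares gave −369 of −381 CPM, and for Tnnt3 they gave −255 of −306 CPM. For Actn3 they gave −139 of −224 CPM. For Tnni2 and Myoz1 the levels within classes gave the larger part, −64.2 of −95.1 CPM and −56.4 of −97.7 CPM. For Myl1 the levels within classes gave 897 CPM and the class shares −73.8 CPM, and for Mylpf 61.4 and −18.4 CPM. The part within classes includes mixed and undetermined nuclei, of which more lay in cluster 1 in cKO (88 of 207 and 314 of 677) than in Ctrl (17 of 126 and 57 of 461), so it can hold shifts between clusters. The lower totals of Tpm1 and Tnnt3 thus lay mainly in class shares, and the higher totals of Myl1 and Mylpf in levels within classes.

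**Figure D2:**
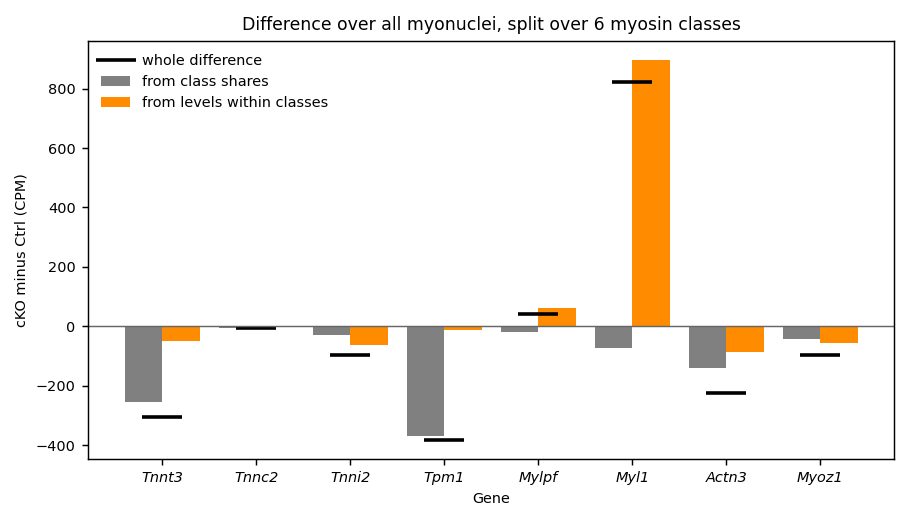
Difference in CPM over all myonuclei, cKO minus Ctrl, for each gene (black line), split into the part from the shares of 6 myosin classes (grey bars) and the part from levels within those classes (orange bars). No error bars are drawn. The grey bar makes up nearly all of the Tpm1 difference (−369 of −381 CPM), while the orange bar of Myl1 (897 CPM) exceeds its whole difference of 823 CPM.

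Within Myh4-main nuclei, most of which lay in cluster 0 in both libraries, 0 of 8 genes were at least 1.5-fold lower in cKO (12.2% of features) and 2 were at least 1.5-fold higher (8.72% of features): Myl1 and Mylpf. Myl1 measured 693 CPM in Ctrl against 1748 CPM (1701 to 1796) in cKO, with a log2 ratio of 1.34 (1.27 to 1.40). Mylpf measured 119 CPM (110 to 129) in Ctrl against 181 CPM (166 to 197) in cKO, with a log2 ratio of 0.60 (0.43 to 0.77). The Mylpf ratio fell short of 1.5-fold with doublets kept (0.57), without clusters 1 and 8 (0.56) and as a mean over single nuclei (0.35). Tnni2 had a log2 ratio of −0.31 (−0.44 to −0.19) and Myoz1 one of −0.29 (−0.42 to −0.16). The other 4 had log2 ratios near 0: Tpm1 at 0.10 and Tnnt3 at 0.08, both with intervals above 0, Tnnc2 at 0.00 and Actn3 at −0.03. With the main myosin read after thinning to 500 or 1000 UMIs, the ratio of Tnnc2 moved to −0.45 or −0.32. The median of the 8 genes was 0.04, against −0.04 over all features.

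In Myh1-main nuclei, most of them in cluster 2 but 26 of 301 in Ctrl and 86 of 382 in cKO in cluster 1, Mylpf and Myl1 were again at least 1.5-fold higher and 0 genes were that much lower, against 10.5% and 14.7% of features. Mylpf measured 115 CPM (92.3 to 141) in Ctrl against 266 CPM in cKO (233 to 302), its largest ratio among the fast myosins (1.21, 0.86 to 1.58). The log2 ratio of Myl1 was 0.91 (0.80 to 1.03). Actn3 was lower, at 251 CPM in Ctrl against 190 in cKO (−0.40, −0.71 to −0.10), but both levels overlapped cluster 4 of their library and lay below cluster 6. Tnnt3 and Tpm1 had log2 ratios of 0.15 and 0.18 with intervals above 0. The intervals of Tnnc2, Tnni2 and Myoz1 spanned 0.

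In Myh2-main nuclei, Mylpf measured 53.9 CPM (33.8 to 81.7) in Ctrl against 106 CPM (83.2 to 133) in cKO, with a log2 ratio of 0.98 (0.27 to 1.74). These nuclei lay mostly in cluster 3, but 14 of 165 in Ctrl and 94 of 325 in cKO lay in cluster 1, and over all nuclei of cluster 3 Mylpf measured 60.1 CPM in Ctrl against 53.5 CPM in cKO. Myl1 measured 838 CPM in Ctrl against 1089 CPM in cKO (0.38, 0.19 to 0.57). Of the 8 genes, 1 was at least 1.5-fold higher, against 10.7% of features, and 2 were that much lower, against 19.1%. The intervals of Tnnt3, Tnnc2, Tnni2, Tpm1 and Myoz1 spanned 0.

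In Myh7-main nuclei the comparison rested on 19 Ctrl nuclei with 40470 UMIs against 276 cKO nuclei with 609887 UMIs. Tnnt3 measured 741 CPM (500 to 1058, 30 UMIs) in Ctrl against 343 CPM (298 to 392) in cKO, with a log2 ratio of −1.11 (−1.67 to −0.51). Myl1 measured 173 CPM (69.5 to 356, 7 UMIs) in Ctrl against 835 CPM (764 to 910, 509 UMIs) in cKO, with a log2 ratio of 2.27 (1.22 to 3.59). The interval excluded 0 also for Myoz1 (−2.25, −3.63 to −0.64), with 6 Ctrl and 19 cKO UMIs, and spanned 0 for the other 5 genes. Of the 8 genes, 5 were at least 1.5-fold lower and 1 was that much higher, against 28.2% and 28.5% of features. The median log2 ratio of the 8 genes was −0.97, and 0.03 when the main myosin had to hold at least 80% of the myosin UMIs. The Ctrl levels of Tnnt3 and Myl1 in these nuclei were not above cluster 4, which held 825 and 216 CPM, so both ratios start from a level read as background.

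The cKO Myh7-main nuclei held less of most members than nuclei from outside the fibres. Against cluster 4 of the same library, 6 of 8 genes were lower, 4 of them at least 1.5-fold (42.4% of features), with an interval below 0 for Tnnt3, Tnni2, Tpm1 and Actn3. Tnnt3 was at 343 CPM in these nuclei and 798 CPM in cluster 4, and Tpm1 at 185 and 460 CPM. Myl1 was the exception with an interval above 0, at 835 CPM against 492 CPM (log2 ratio 0.76, 0.48 to 1.06), but it was not above cluster 6 of that library, which held 852 CPM (724 to 997). Levels at or below the reference are read as background. For the 7 genes other than Myl1, no expression in cKO Myh7-main nuclei is thus read from these data. The free RNA of these nuclei was not measured and can be less than cluster 4 holds. Myh4 was at 195 CPM in them and 576 CPM in cluster 4, though their choice by main myosin lowers Myh4. A level below cluster 4 therefore does not show that a gene is silent.

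**Figure D3:**
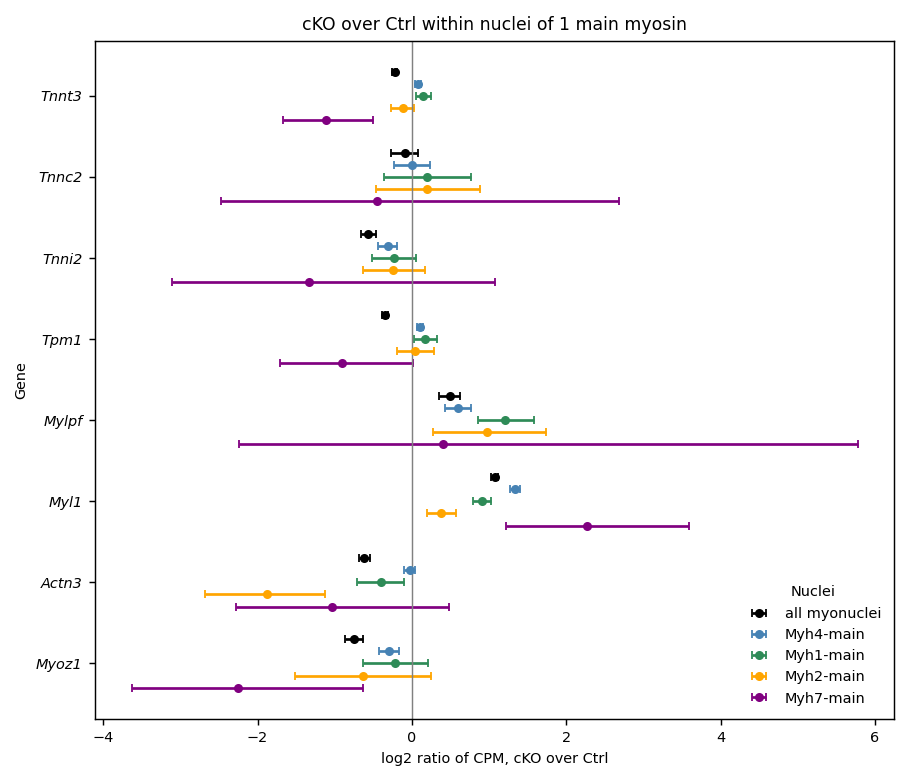
log2 ratio of CPM, cKO over Ctrl, for each gene over all myonuclei (black) and within nuclei of 1 main myosin (colours). Bars are exact conditional 95% intervals for counting error. Myl1 lies right of 0 in every group shown, from 0.38 in Myh2-main to 2.27 in Myh7-main nuclei, and the Myh7-main bars are the widest.

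Since Myl1 stood apart, its ratio was read by cluster. It was higher in cKO in all 8 myonuclear clusters, with each interval above 0 and log2 ratios from 0.35 (0.21 to 0.48) in cluster 1 to 2.93 (2.35 to 3.51) in cluster 8. Within Myh4-main nuclei alone it was also higher in each of these clusters, from 0.29 in cluster 1 to 3.36 in cluster 8. Myl1 was higher in cKO outside the fibres too: 216 CPM in Ctrl and 492 CPM in cKO in cluster 4 (log2 ratio 1.19, 0.83 to 1.54), and 455 and 852 CPM in cluster 6, the cluster with endothelial and smooth muscle markers (0.91, 0.58 to 1.24). In cluster 10, with immune markers, Ctrl held 27 and cKO 8 UMIs of Myl1, and the ratio was −0.45 with an interval that spanned 0 (−1.80 to 0.73). Cluster 11, with satellite cell markers, held 17 and 6 UMIs.

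For Mylpf the picture by cluster was less even. The ratio was above 0 with its interval in 5 of 8 myonuclear clusters, clusters 0, 2, 5, 7 and 8. In cluster 3 it was −0.17 (−0.86 to 0.52) and in cluster 1 0.13 (−0.28 to 0.55). Cluster 4 held 31.7 CPM of Mylpf in Ctrl and 24.2 CPM in cKO, with overlapping intervals. In cluster 4, then, Mylpf did not share the difference of Myl1 at this depth.

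**Figure D4:**
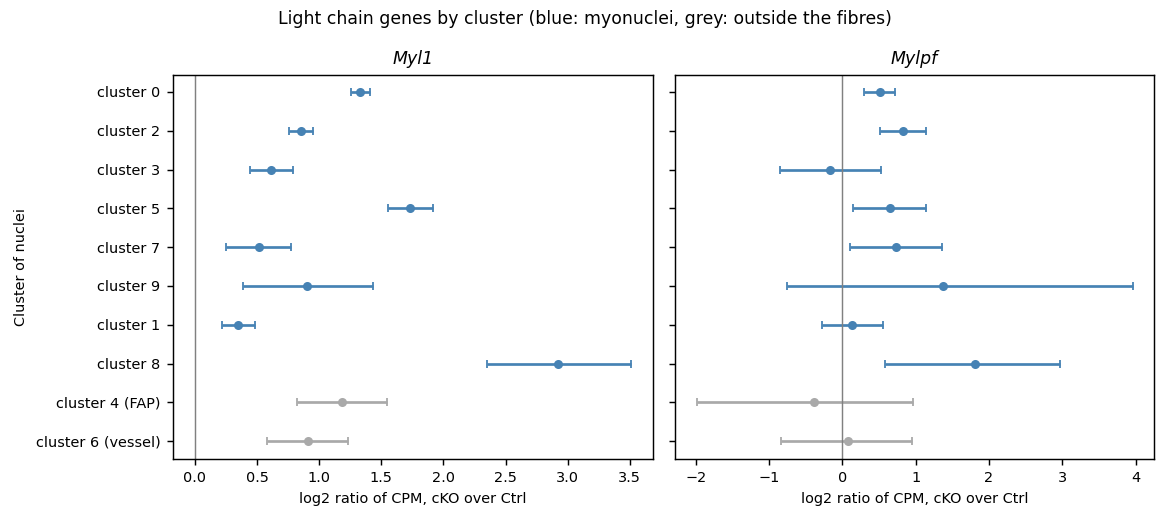
log2 ratio of CPM, cKO over Ctrl, of Myl1 (left) and Mylpf (right) in the 8 myonuclear clusters (blue) and in clusters 4 and 6 from outside the fibres (grey). Bars are exact conditional 95% intervals, and the 2 panels have different axes. All 10 Myl1 values lie above 0, and the Mylpf values range from −0.39 in cluster 4 to 1.81 in cluster 8.

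More nuclei held Myl1 in cKO, and more held several UMIs of it. With every nucleus thinned to 500 UMIs, Myl1 was seen in 483 of 1912 Ctrl Myh4-main nuclei, or 25.3% (23.3 to 27.3), and in 747 of 1434 cKO nuclei, or 52.1% (49.5 to 54.7). Before thinning, at medians of 2312 and 1668 UMIs, the shares were 64.3% and 82.8%. The share with at least 3 UMIs of Myl1 after thinning was 1.67% in Ctrl and 8.02% in cKO. In cluster 4 Myl1 was seen in 6.29% of thinned Ctrl nuclei (3.88 to 9.55) and in 12.2% of thinned cKO nuclei (7.37 to 18.5). In cluster 6 the shares were 8.62% (4.91 to 13.8) and 25.8% (18.3 to 34.6), so detection rose outside the fibres too.

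Of the other members, Tnni2 was seen in 15.0% of thinned Ctrl and 11.2% of thinned cKO Myh4-main nuclei, with intervals that did not overlap, and the intervals of the remaining 6 overlapped between libraries. In thinned Myh4-main nuclei, Tnnt3 was seen in 67.4% in Ctrl (65.3 to 69.5) and 69.0% in cKO (66.5 to 71.4). Tpm1 was seen in 63.2% (61.0 to 65.3) and 63.7% (61.2 to 66.2). In cluster 4, Tnnt3 was seen in 24.8% of Ctrl and 23.0% of cKO nuclei and Tpm1 in 17.0% and 15.5%. Of the 8 genes, a thinned Myh4-main nucleus held on average 2.24 in Ctrl and 2.49 in cKO, and a thinned Myh7-main nucleus 0.89 and 0.56. None of the 8 was seen in 162 of 276 cKO Myh7-main nuclei, or 58.7% (52.6 to 64.6), against 54.1% (45.7 to 62.3) in cluster 4 of that library.

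Each fast gene was then set against its slow or shared partner, since a share within a pair does not depend on the library total. Over all myonuclei the fast share was lower in cKO in all 8 pairs. Of the UMIs of the 3 troponin pairs together, 98.8% (98.6 to 98.9) were fast in Ctrl and 88.1% (87.5 to 88.6) in cKO, a difference of −10.7 points (−11.2 to −10.2). Tnnt3 took 99.2% of its pair with Tnnt1 in Ctrl and 91.1% in cKO, and Tnni2 97.8% and 86.3% of its pair with Tnni1. Tnnc2 took 91.0% (88.6 to 93.1) and 48.9% (45.7 to 52.1) of its pair with Tnnc1, the largest difference of the 8. The level of Tnnc2 differed by less than its counting interval, so this difference lay in the slow partner Tnnc1, with a log2 ratio of 3.31 (2.92 to 3.73).

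Among the other pairs, Tpm1 took 97.3% of its pair with Tpm3 in Ctrl and 80.3% in cKO, and Mylpf 85.0% and 48.2% of its pair with Myl2. Myoz1 took 82.0% and 44.4% of its pair with Myoz2. Actn3 took 45.2% and 21.5% of its pair with Actn2, an α-actinin of all fibre types. Myl1 stood apart, with 99.5% (99.2 to 99.6) of its pair with Myl3 in Ctrl and 99.0% (98.8 to 99.2) in cKO. Without clusters 1 and 8 the difference of the 3 troponin pairs was −1.33 points.

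Within Myh4-main nuclei the fast share of the 3 troponin pairs was 99.7% in Ctrl and 97.7% in cKO. The slow troponins were not above the reference there within their intervals: cKO Myh4-main nuclei held between 35.0 and 50.1 CPM of Tnnt1 and 14.5 CPM of Tnnc1, and cluster 4 of that library 44.3 and 20.2 CPM. Actn3 took 72.7% (71.5 to 73.8) of its pair with Actn2 in Ctrl and 56.3% (54.7 to 57.8) in cKO, while the ratio of its own level had an interval that spanned 0. The level of Actn2 in these nuclei, 291 CPM in Ctrl and 591 in cKO, lay beside 289 and 464 CPM in cluster 4 and 262 and 1115 CPM in cluster 6, so it moved outside the fibres too. In Myh2-main nuclei Mylpf took 47.8% (32.9 to 63.1) of its pair in Ctrl and 42.2% (34.7 to 49.9) in cKO, while Tnnt3 took 99.7% and 92.8%. The Ctrl share of Mylpf rests on 22 UMIs at a level that overlapped cluster 4.

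In Myh7-main nuclei the fast share of the 3 troponin pairs was 25.5% in Ctrl (35 of 137 UMIs, 18.5 to 33.7%) and lay between 17.8 and 22.3% in cKO (249 of 1248 UMIs), a difference of −5.60 points (−14.0 to 1.84). The difference became 6.81 points when the main myosin had to hold at least 80% of the myosin UMIs. Tpm1 took 9.33% of its pair in Ctrl and 8.03% in cKO, and Mylpf 1.61% and 3.72%. Myl1 took 41.2% of its pair in Ctrl (18.4 to 67.1, 7 of 17 UMIs) and 90.6% in cKO (87.8 to 92.9, 509 of 562 UMIs). In cluster 4 of cKO the share of Myl1 was 98.4% and in cluster 6 it was 94.0%, so the 90.6% was not above what nuclei outside the fibres held.

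**Figure D5:**
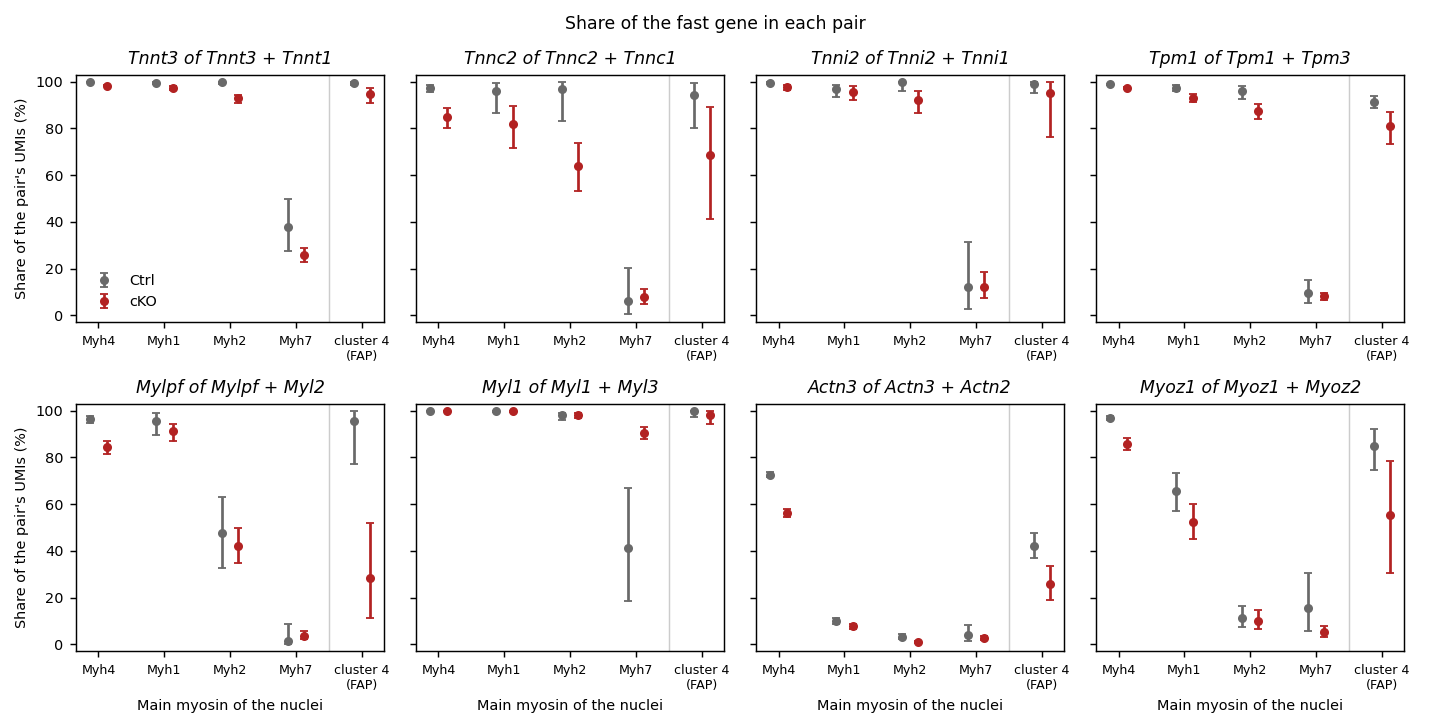
Share of the fast gene in the UMIs of each fast and slow (or shared) pair, in percent, by main myosin of the nuclei and in cluster 4 (FAP and adipocyte markers). Points are single libraries (grey Ctrl, red cKO) and bars are exact 95% binomial intervals. All pairs but Myl1 with Myl3 are mostly slow or shared in cKO Myh7-main nuclei, where Myl1 holds 90.6%.

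Other genes of the fast fibre were read from 3 lists. Of 12 further fast-fibre genes, 2 were at least 1.5-fold lower over all myonuclei and 0 were that much higher, against 13.6% and 9.36% of all features: Myom2, an M-band protein, at 431 CPM in Ctrl against 249 in cKO (log2 ratio −0.79, −0.88 to −0.71), and Pygm, muscle glycogen phosphorylase, at 1375 and 906 CPM (−0.60, −0.65 to −0.56). Their median was −0.17. Atp2a1, the calcium pump of fast fibres, had a log2 ratio of −0.41 over all myonuclei and 0.06 in Myh4-main nuclei. Mybpc2, fast myosin-binding protein C, had a log2 ratio of 0.10 over all myonuclei and 0.62 (0.55 to 0.68) in Myh4-main nuclei, where it was the only 1 of the 12 past 1.5-fold (12.2% of all features were that much lower and 8.72% higher).

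Of 12 sarcomere genes shared by fibre types, 0 were at least 1.5-fold lower and 3 were that much higher over all myonuclei (13.6% and 9.36% of all features), with a median of 0.24. These were Acta1, skeletal actin, at 139 CPM in Ctrl against 263 in cKO (0.92, 0.81 to 1.03), Actn2 at 786 and 1545 CPM (0.98, 0.93 to 1.02), and Lmod3, an actin filament nucleator, at 22.3 and 37.3 CPM (0.74, 0.46 to 1.03). The same 3 genes were past 1.5-fold in Myh4-main nuclei, where 8.72% of all features were that much higher. Acta1 was past it in the nuclei of each of the 4 main myosins, and Myl1 and Mylpf each in 3 of the 4 (from 8.72% of features in Myh4-main to 28.5% in Myh7-main nuclei were that much higher). Mylpf fell short of it in Myh4-main nuclei under some settings. Mylpf in Myh2-main and Myl1 in Myh7-main nuclei started from Ctrl levels that overlapped cluster 4. The cKO Myh2-main level of Mylpf, 106 CPM, overlapped cluster 6 (98.3 CPM). Acta1 was not set beside clusters 4 and 6.

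Regulators of the fast programme formed the third list. Tbx15, a T-box factor of fast glycolytic fibres, measured 469 CPM in Ctrl against 265 CPM in cKO (−0.82, −0.91 to −0.74). It was at least 1.5-fold lower over all myonuclei and in Myh4-main nuclei too. Sox6, a repressor of slow genes, had log2 ratios of −0.58 over all myonuclei and −0.20 in Myh4-main nuclei. Maf and Eya1 were lower over all myonuclei (−0.31 and −0.13) and higher in Myh4-main nuclei (0.22, 0.11 to 0.34, and 0.21, 0.06 to 0.35).

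Over the 8 groups formed by 4 main myosins and 2 libraries, the genes most like the mean profile of the 8 members were B3galnt2, Mapk12, Cdkal1, Cdc42 and Esr1, among 5039 candidates, with Pearson r of log2(CPM + 10) from 0.98 for B3galnt2 down to 0.976 for Esr1. The groups of a library share its depth and free RNA, so r is a description only. Of the members, Tpm1 was most like the mean profile that includes it (r = 0.98) and Myl1 least (r = 0.56).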

How the data were processed

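Reads had been aligned to mm10/GRCm38 by the authors (Cell Ranger 3.1.0, defaults), who deposited UMI counts, not normalised, over 27998 genes and the barcodes kept as cells; the annotation release and intron handling are not given in the sources used here. The labels name an older kit than the methods, and titles speak of mouse 1 where the protocol pooled 3 muscles, so a library was 1 sample. Following the study, a nucleus needed at least 100 genes, at least 500 UMIs and at most 10% of UMIs from mitochondrial genes (3833 Ctrl and 3908 cKO passed). Scrublet (scanpy 1.11.5) marked 0 nuclei as doublets in either library, so it had not worked, and the 8% with the highest score were removed instead (307 and 313). Clustering used Seurat 5.3.0 with SCTransform, 3000 integration features, 25 principal components and resolution 0.3, which gave 12 clusters. Myonuclei were the 8 clusters in which no cell type from outside the fibres had 3 or more detected markers and more than the myonuclear list. Clusters 0, 5 and most other myonuclear clusters stay unnamed.

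UMIs were summed per library and main myosin. Intervals at 95% are exact Poisson for CPM, exact conditional for log2 ratios and Clopper-Pearson for shares, and differences of shares combine both exact intervals. A call meant at least 1.5-fold with at least 20 UMIs. The computations, run with Python 3.11.15, numpy 2.4.6 and scipy 1.17.1, were tested on simulated data. All 8 members were read in every comparison by myosin, partners only in pair shares, and listed genes by UMI rank in Ctrl (up to 4 a list) or, where 5 or fewer passed the fold, after their values were seen; Acta1 across myosins was singled out in the same way. The members and gene lists were chosen with earlier results of these data known. Gene positions come from GENCODE M21 and promoters from RefSeq (GRCm38.p6). Alternatives changed the filters, the total, the myosin rule and the clusters used. 1 listed regulator is not reported here.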

Additional observations from a re-analysis of the deposited data

Results flagged for a closer look

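Tnnt3 differed in direction between nuclei of different main myosins. Its log2 ratio of cKO over Ctrl was 0.149 in Myh1-main nuclei and 0.0768 in Myh4-main nuclei, with intervals above 0, and −1.11 in Myh7-main nuclei, with an interval below 0. This was marked because the values pointed in opposite directions, and the difference between them was not tested. The Myh7-main value rests on 30 UMIs in 19 Ctrl nuclei, and neither of its levels was above that of cluster 4.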

How the results depend on the processing

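No paired analysis was possible because each group has 1 library. Leaving out clusters 1 and 8, an alternative chosen after seeing the data, turned the median log2 ratio of the 8 genes over all myonuclei to 0.0299, that of Tnnt3 to 0.0709 and that of Tpm1 to 0.0438; it left 0 genes at least 1.5-fold lower, gave −1.36 for Myh2-main over Myh4-main nuclei in cKO and 0.33 for cKO over Ctrl in Myh1-main nuclei, and moved the share of the 3 troponin pairs to −1.33 points. It was not applied to Myh7-main nuclei, of which 1 Ctrl and 4 cKO nuclei would remain. The median over all myonuclei was −0.23 with every nucleus that passed the filters, −0.19 without Malat1 and mitochondrial genes in the total and −0.22 as a mean over single nuclei, each with 1 gene at least 1.5-fold lower; relative to the median of all features it was also 1, at a fold of 2 it was 0, and without Malat1 and mitochondrial genes 2 genes were at least 1.5-fold higher. With the main myosin read after thinning to 500 UMIs, Myh2-main over Myh4-main nuclei gave −1.67 in Ctrl and −1.35 in cKO, and cKO over Ctrl in Myh1-main nuclei 0.29, as with a main myosin at 80%. The troponin pair difference was −9.81 points as a mean over single nuclei, and 6.81 points in Myh7-main nuclei with a main myosin at 80%. Mylpf in Myh4-main nuclei, reported at 0.60, was below 1.5-fold with doublets kept (0.57), without clusters 1 and 8 (0.56) and as a mean over single nuclei (0.35). The cause of these shifts was not tested. Another 92 values recomputed for these summaries stayed inside the interval of the reported value or, for counts, within 1.5 times of it. For a median of the 8 genes, the range used ran from the median of their lower bounds to that of their upper bounds. It is not an interval of the median, and for Myh7-main nuclei it ran from −2.26 to 0.78. The 92 values include the median in Myh7-main nuclei, −0.97 as reported and 0.0314 with a main myosin at 80%, so this median was not stable. They also include the number of genes at least 1.5-fold lower over all myonuclei, which was 3 from at least 1000 UMIs per nucleus. With 1 library a group, no value has a replicate check, and the 19 Ctrl Myh7-main nuclei limit every ratio in that class.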
